A study of Mus musculus with 8 samples.

Results

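The 10 trophoblast regulator genes Cdx2, Elf5, Gata2, Gata3, Tfap2a, Tfap2c, Hand1, Ets2, Krt8 and Krt18 were followed in an ATAC-seq table of mouse embryonic stem cells. A peak was taken for a gene when its centre lay inside the gene or within 50 kb of it. This gave 164 of the 134407 peaks of the table. The nearest protein-coding gene was one of the 10 for 112 of them, here called the genes' own peaks, and 52 lay nearer to another gene. ATAC-seq uses the Tn5 transposase to insert sequencing adapters into open chromatin, so that a peak value counts insertions and not transcripts, and no RNA values were analysed here.

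All 8 libraries came from E14, a wild-type mouse embryonic stem cell line, grown on gelatin in serum with LIF. The 4 paused cultures received INK128, an inhibitor of the mTOR kinase, at 200 nM for 24 h, and the 4 others were kept under control conditions. Each library was made from 50000 live cells. E14 is a single line, and the labels do not say whether the 4 replicates were grown as separate cultures, so the p-values measure the spread between these samples, which may be technical. The question the design poses for these genes is whether chromatin at the regulators of an extraembryonic lineage differs between paused and control cells.

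The trophoblast is the outer layer of the blastocyst and forms the placenta, and embryonic stem cells, which come from the inner cell mass, do not normally enter it. Cdx2 and Elf5 are transcription factors of trophoblast stem cells, with the GATA and AP-2 factors (Gata2, Gata3, Tfap2a, Tfap2c) acting alongside them in specification and maintenance. Hand1 drives giant cell differentiation, Ets2 is needed for self-renewal of the trophoblast, and Krt8 and Krt18 encode the paired keratins of simple epithelia, among them the trophectoderm.

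Promoter sequences show what lies at the starts of these genes and which starts carried a peak. RefSeq records of GRCm38.p6 gave 11 promoter windows, 250 bases before to 50 after a start, for 8 of the 10 genes. The 5 stretches printed are the 250 bases before a start, 5′ to 3′ on the strand of the gene. They are the 4 whose window overlapped a deposited peak, with Cdx2 as an example of a start without one, and capitals mark the bases inside a deposited peak.
Gata2, second start, plus strand, chr6:88198414-88198663: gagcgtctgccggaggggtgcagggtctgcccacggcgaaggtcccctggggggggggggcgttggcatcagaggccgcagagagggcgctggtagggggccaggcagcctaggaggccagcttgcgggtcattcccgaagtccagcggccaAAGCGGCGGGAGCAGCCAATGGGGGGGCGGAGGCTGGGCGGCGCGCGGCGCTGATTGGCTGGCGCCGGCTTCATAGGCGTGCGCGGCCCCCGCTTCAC
Tfap2a, second start, minus strand, chr13:40733796-40734045: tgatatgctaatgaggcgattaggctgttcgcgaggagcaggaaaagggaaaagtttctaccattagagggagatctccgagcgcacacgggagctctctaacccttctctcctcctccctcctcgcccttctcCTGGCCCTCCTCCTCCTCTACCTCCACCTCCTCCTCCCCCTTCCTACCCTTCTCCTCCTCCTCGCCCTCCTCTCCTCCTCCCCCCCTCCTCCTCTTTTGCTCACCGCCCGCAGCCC
Krt18, plus strand, chr15:102027966-102028215: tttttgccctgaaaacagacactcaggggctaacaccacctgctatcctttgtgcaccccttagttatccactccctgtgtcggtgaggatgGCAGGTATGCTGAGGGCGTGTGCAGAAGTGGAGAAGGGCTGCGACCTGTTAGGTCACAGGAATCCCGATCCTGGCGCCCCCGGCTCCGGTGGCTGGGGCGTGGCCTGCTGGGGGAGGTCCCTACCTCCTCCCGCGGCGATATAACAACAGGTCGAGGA
Elf5, first start, plus strand, chr2:103411848-103412097: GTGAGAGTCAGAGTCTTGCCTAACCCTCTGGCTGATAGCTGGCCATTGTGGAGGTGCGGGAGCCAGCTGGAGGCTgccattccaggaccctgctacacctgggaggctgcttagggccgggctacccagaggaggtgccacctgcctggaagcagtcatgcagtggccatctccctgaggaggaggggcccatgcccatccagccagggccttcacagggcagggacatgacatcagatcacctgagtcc
Cdx2, minus strand, chr5:147307250-147307499: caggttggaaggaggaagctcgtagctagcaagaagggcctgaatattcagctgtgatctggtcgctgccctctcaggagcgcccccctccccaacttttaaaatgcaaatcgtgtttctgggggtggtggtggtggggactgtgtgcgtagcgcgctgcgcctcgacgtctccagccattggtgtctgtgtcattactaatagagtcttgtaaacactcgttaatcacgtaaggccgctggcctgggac
The peak took up 98 of the 250 bases at Gata2, 116 at Tfap2a, 158 at Krt18, 75 at Elf5 and 0 at Cdx2.

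The windows differed in base composition. Over the 11 windows the number of CpG dinucleotides had a median of 17 and ran from 3 in the first Elf5 window to 32 in the first Gata2 window, against a median of 7 over 32851 RefSeq windows. Their median GC content was 61%, against 52.7% over all windows. The Elf5 window with a peak was thus the one with the fewest CpG, and the Gata2 window with a peak held 29.

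Motif letters were searched on both strands as a description of these windows. The AP-2 consensus GCCNNNGGC occurred in 4 of the 11 windows, at Cdx2, Gata2 (second start), Gata3 and Krt18, and in 16.6% of all windows. At Krt18 it began 83 bases before the start, inside the peak. GGGCGG, the GC box, occurred in 6 of 11 windows and in 35.7% of all. The second Gata2 start held 3 GC boxes and 2 CCAAT boxes, all inside its peak, and the second Tfap2a start held 1 GC box inside its peak. The octamer ATTTGCAT, which POU factors bind, lay on the minus strand of the Cdx2 window, 147 bases before the start, and occurred in 1.74% of all windows. CANNTG, the E-box that bHLH proteins bind, occurred in 7 of 11 and in 72.3% of all. CCAAT was in 2 of 11 (37.4% of all), CATTCC of the TEAD factors in 2 (14.7%), and AGATAA of the GATA factors in 1, at Krt8 (11.2%). CCGGAA of the ETS factors was in 1, at Gata3 (14.9%), TATAAA in 1, at Krt8 (13.6%), and TTTATNG of the CDX factors in 0 (10.9%). A match is a string of letters and not a bound site.

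Values are the deposited ones: reads per peak, divided by the authors by 1 factor per library. Control replicate 1 was the deepest library, with 21161767 reads in peaks and a median of 91 per peak, and control replicate 3 the shallowest, with 4434037. The median peak of the other 7 libraries held 18 to 29 reads, so weak peaks were measured with less precision. Where a library has 0 reads at a peak, up to 3 are allowed by counting error alone, which is 1.04 on the deposited scale in the deepest library and 5.08 in the shallowest. Peaks were tested if their mean value was 10 or more. Of these 127402, 13.9% had an adjusted p under 0.05 in limma-trend, 11.0% higher and 2.91% lower in paused cells, and the median log2 change was 0.10. This balance rested on the scaling: 13958 peaks were called higher and 3702 lower, against 9084 and 7058 in edgeR with TMM scaling and 6574 and 4439 when each library was loess-corrected for peak strength. The deposited values of all peaks summed to 7.32e+06 to 7.65e+06 in control and to 8.06e+06 to 8.64e+06 in paused libraries. Higher values in paused cells were thus shared by the table as a whole. The start peaks of 7 embryonic stem cell markers summed to 1379 to 1504 in control and 1584 to 1809 in paused libraries. Those of 5 fibroblast markers summed to 291 to 375 and 355 to 402, and those of 4 primitive endoderm markers with a start peak to 371 to 471 and 437 to 559. For Col1a1, Thy1, Pdgfrb, Gata6, Sox17 and Sox7 no start record was available, so the peak nearest to either gene end was used. Such a peak may lie at the end and not at the start. Of the tested peaks nearest to the listed markers, 22 of 131 were higher and 2 lower for the stem cell list. For the fibroblast list these were 3 and 1 of 32, and for the primitive endoderm list 5 and 0 of 44. Their part in the results was not tested.

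Across the 10 genes, 110 of the 112 own peaks could be tested and 15 were called, 13 higher and 2 lower in paused cells. The share, 13.6%, was near the 13.9% of all tested peaks. Their median log2 change was 0.12, beside 0.10 for all peaks, and 71 of the 110 were positive. All 4 paused values lay above all 4 control values in 16 own peaks and below them in 4, where 13.0% and 4.36% of all tested peaks did so. With the 52 peaks nearer to other genes included, 161 peaks were tested and 17 were higher and 5 lower. Under edgeR with TMM the own peaks gave 9 higher and 6 lower, and after the loess correction 6 higher and 4 lower. The authors' deposited table lists 13 of the 112 own peaks with an FDR under 0.05, 12 higher and 1 lower, where 11.0% of all peaks have one. All 13 were also called here.

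**Figure D1:**
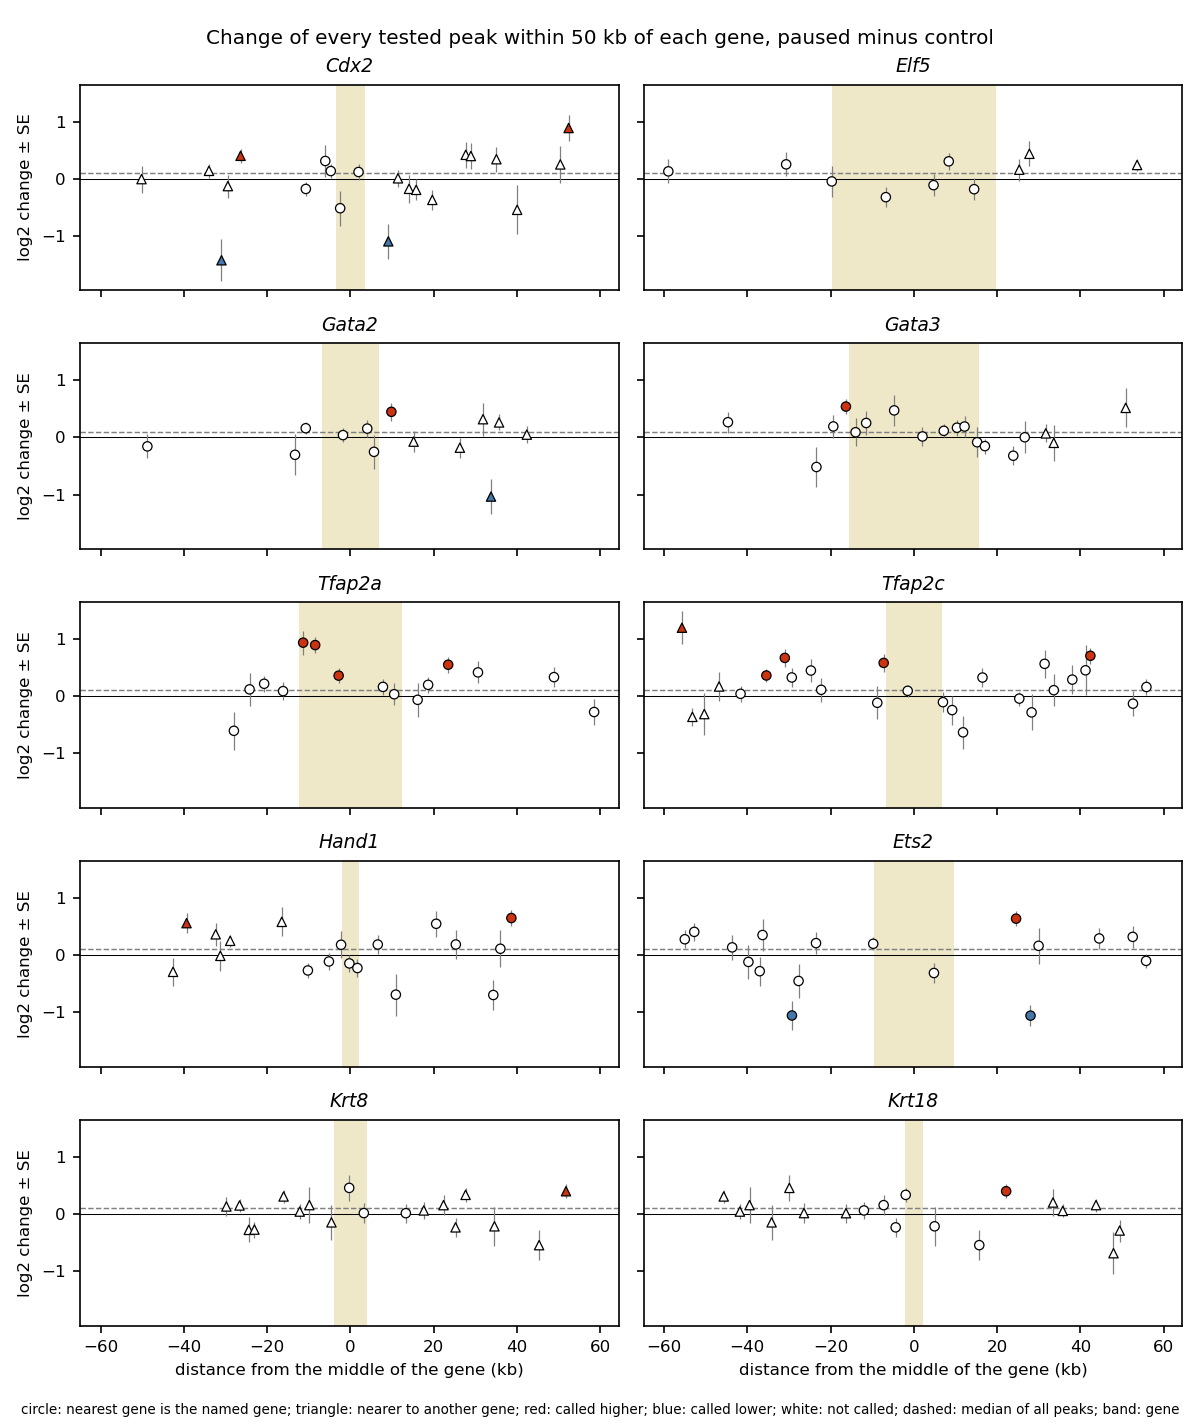
Log2 change (paused minus control, on the log2(value + 1) scale) with its standard error for each tested peak within 50 kb of the 10 genes, against the distance of the peak centre from the middle of the gene in kb. Circles are own peaks, triangles are nearer to another gene, red marks peaks called higher and blue peaks called lower, the band is the gene and the dashed line the median of all peaks. Tfap2a and Tfap2c have 4 red circles each, and Cdx2, Elf5 and Krt8 have none.

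Called peaks lay both inside and outside the genes. Of 28 own peaks inside a gene, 3 were higher and 0 lower, and all 3 were in Tfap2a. Of 82 tested own peaks outside, 10 were higher and 2 lower. The calls were spread over 7 of the 10 genes, with 4 each at Tfap2a and Tfap2c, 3 at Ets2, 1 each at Gata2, Gata3, Hand1 and Krt18, and 0 at Cdx2, Elf5 and Krt8.

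Each gene was also given 1 value per library, the sum of the deposited values over its own peaks. Of 18109 genes with a mean sum of at least 10, 31.0% were called by limma-trend, 29.6% higher and 1.40% lower, and the median log2 change was 0.15. Tfap2a and Tfap2c were called higher, and none of the other 8 was called. Against the median gene, the change at Tfap2a was 0.18 larger and that at Tfap2c 0.07 larger, while the other 8 had smaller changes than the median gene.

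**Figure D2:**
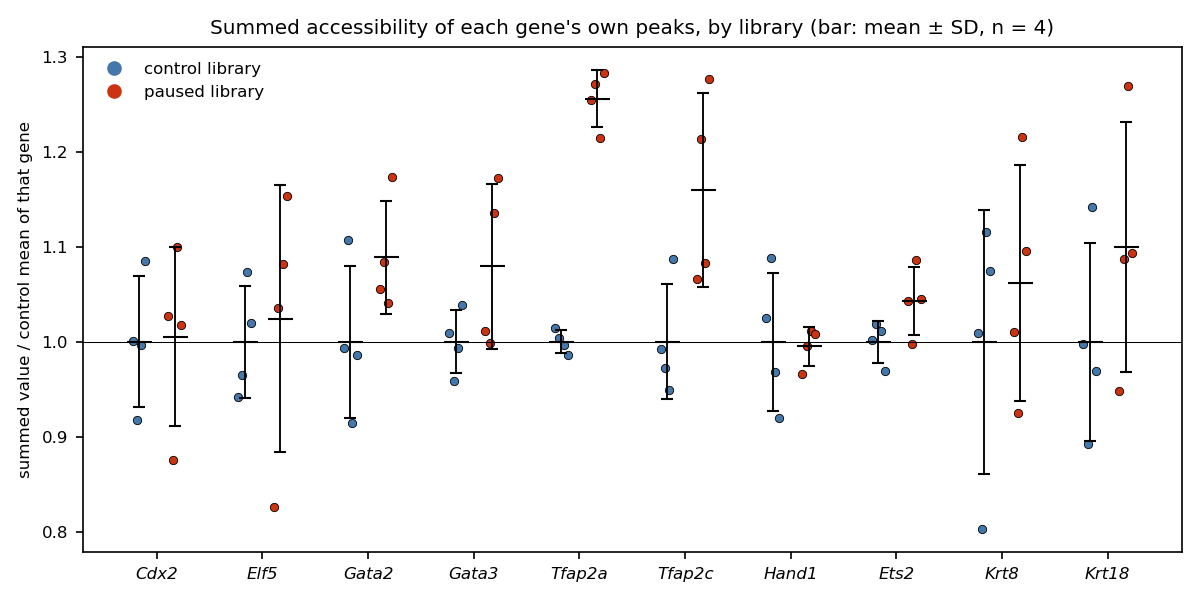
Summed deposited value of the own peaks of each gene in each library, divided by the control mean of that gene (vertical axis, no unit), for control and paused libraries, with mean ± SD (n = 4). The 4 paused points of Tfap2a lie above its 4 control points, and the groups overlap at the other 9 genes.

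Near the starts of the genes accessibility differed widely between genes, and none of the peaks nearest to a start was called at the 8 genes whose start is known. For the 8 genes with a promoter record, the peak nearest to a start was taken, and for Hand1 and Tfap2c, whose strand was not given, the peak nearest to either end. For these 2 the peak may therefore lie at the end and not at the start. Tfap2c had a peak within 2 kb of each end: the nearer, 505 bp away, had a mean of 43.9 and was not called, and the other, 785 bp away, had a mean of 86.0 and was called higher, so its place in the order depends on which end is the start. All 8 genes with a promoter record had a peak within 2 kb of a start, as did 70.6% of 17491 genes with such a record. Hand1 and Tfap2c had a peak within 2 kb of an end, which is not the same measure. In order of mean value over the 8 libraries these peaks stood at 286 for Gata3, 185 for Ets2, 157 for Gata2, 133 for Krt18, 91.7 for Tfap2a, 87.6 for Cdx2, 77.1 for Hand1, 49.3 for Krt8, 43.9 for Tfap2c and 22.0 for Elf5. All peaks have one width of 201 bp, so peak width does not enter this order. They lay 2 to 1243 bp from a start or end, and the levels were not corrected for base composition. The control ranges of neighbours overlapped for Ets2 and Gata2, for Tfap2a and Cdx2, for Cdx2 and Hand1, and for Krt8 and Tfap2c, and did not overlap for the other neighbours. The median start peak of all genes had a value of 179, so that Gata3 and Ets2 lay above it and the other 8 below, with Elf5 at the 5.20 percentile. Of 11376 start peaks tested in the table, 11.8% were called. The median log2 change of these start peaks was 0.18, beside 0.10 for all tested peaks.

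**Figure D3:**
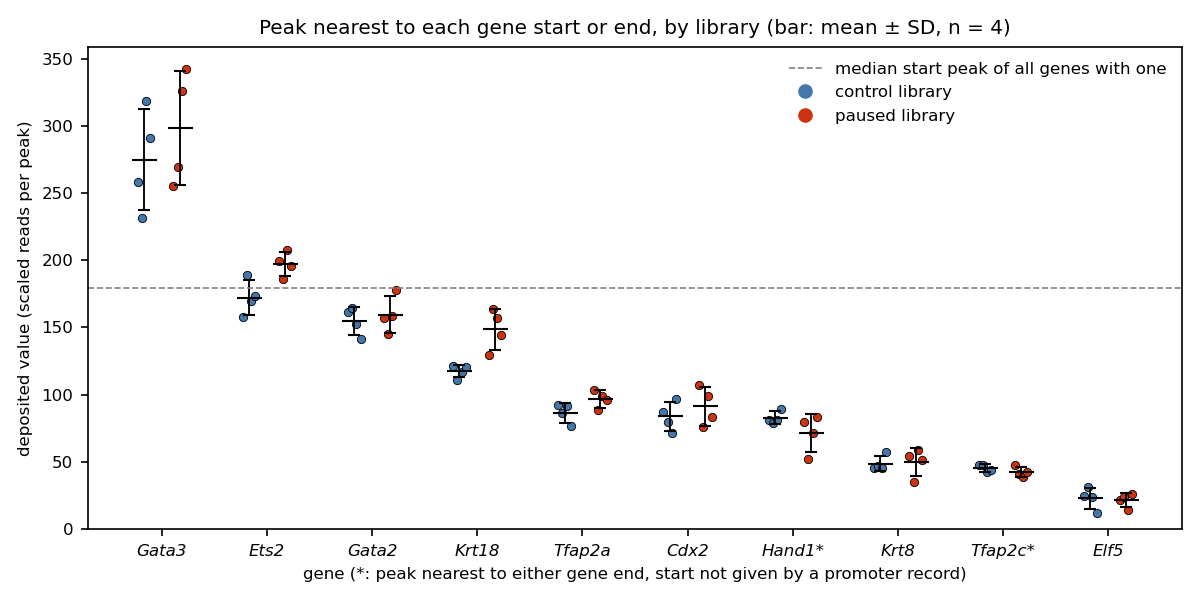
Deposited value (scaled reads per peak) of the peak nearest to the start of each gene, or to either end for Hand1 and Tfap2c, in each control and paused library, with mean ± SD (n = 4). The dashed line is the median over all genes with such a peak, and only at Krt18 do the 4 paused points lie above the 4 control points. Over all tested peaks this was so for 13.0%.

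Cdx2, the homeodomain factor that marks the trophectoderm (GeneID 12591, chr5:147300900-147307249), had 5 own peaks and no called change. Its strongest peak, chr5:147299242-147299442, 1558 bp beyond the gene, had values of 197, 172, 188 and 197 in control replicates 1 to 4 and of 220, 172, 228 and 211 in paused replicates 1 to 4. The groups overlapped, and the log2 change was 0.13 (95% interval -0.10 to 0.37, limma-trend adjusted p = 0.468). The peak nearest to its start lay 1243 bp inside the gene, at chr5:147305906-147306106. It measured 87.5, 80.0, 71.1 and 97.0 in control and 107, 75.7, 99.3 and 83.2 in paused libraries, again overlapping. The own peak with the smallest p, chr5:147301496-147301696, was weak, at 18.6 ± 4.82 in control and 13.1 ± 5.40 in paused cells (SD, n = 4), and was not called (limma-trend adjusted p = 0.272). Summed over its 5 peaks, Cdx2 had 506 ± 34.7 in control and 509 ± 47.6 in paused libraries (SD, n = 4), a log2 change of 0.01 with a 95% interval of -0.15 to 0.16.

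More peaks of the Cdx2 window belonged to other genes than to Cdx2: 16 of the 21, of which 4 were called. Pdx1, a pancreatic homeodomain factor, had a peak at chr5:147273003-147273203 with 18.7, 15.5, 13.6 and 20.6 in control and 5.77, 6.31, 7.76 and 3.51 in paused libraries. The groups did not overlap, and it fell by 1.43 on the log2 scale (SE 0.365, limma-trend adjusted p = 0.00687), with as few as 3 reads in 1 library. A second Pdx1 peak, chr5:147277584-147277784, was higher in paused cells by 0.40 (limma-trend adjusted p = 0.0298), a call lost in 8 of 17 alternatives, among them the omission of control replicate 2 or 3 or paused replicate 1 or 4 (adjusted p 0.0519 to 0.102). Urad, an enzyme gene of uric acid breakdown, had a peak 5912 bp from the Cdx2 start, chr5:147313061-147313261, that was lower by log2 -1.10 (limma-trend adjusted p = 0.012), with 16.7 to 39.7 in control and 6.31 to 17.6 in paused libraries, which overlapped. Without control replicate 4 or paused replicate 2 it was not called (adjusted p = 0.0721 and 0.0605). At Flt3, a cytokine receptor gene, chr5:147356342-147356542 was higher by 0.89 (limma-trend adjusted p = 0.00652), with 14.3 to 22.0 in control and 31.6 to 38.1 in paused libraries and no overlap. DESeq2 did not call it (log2 change 0.78, adjusted p = 0.093).

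Elf5, an ETS-family factor of the trophoblast stem cell network (GeneID 13711, chr2:103412098-103450989), had 7 own peaks and no called change. The peak at its first start, whose sequence is shown above with 75 bases in capitals, was the weakest start peak of the 10 genes. Its values were 24.5, 31.1, 23.7 and 11.8 in control and 21.9, 23.7, 14.0 and 25.8 in paused libraries. They overlapped, and with a median of 17 reads per library the 95% interval of the log2 change ran from -0.60 to 0.50. The strongest Elf5 peak lay inside the gene, at chr2:103439810-103440010, with 73.6, 64.5, 57.6 and 64.7 in control and 66.9, 82.0, 80.7 and 93.7 in paused libraries. The lowest paused value lay among the controls, and the log2 change of 0.30 was not called (limma-trend adjusted p = 0.169). The summed value was 317 ± 18.7 in control and 325 ± 44.6 in paused libraries (SD, n = 4), a log2 change of 0.02 with an interval of -0.17 to 0.22.

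Gata2, a zinc-finger factor active in trophoblast giant cells and blood progenitors (GeneID 14461, chr6:88193891-88207032), had the strongest own peak of all 10 genes and 1 call. That strongest peak, chr6:88189616-88189816, 4175 bp upstream of the first start, measured 285, 380, 312 and 322 in control and 325, 385, 358 and 380 in paused libraries. The groups overlapped, and the log2 change was 0.16 (limma-trend adjusted p = 0.321). The peak over the second start, whose centre was 2 bp from it, had 161, 165, 152 and 141 in control and 157, 145, 158 and 178 in paused libraries, with a log2 change of 0.04 (interval -0.20 to 0.28). One peak, chr6:88210179-88210379, 3247 bp beyond the gene, was called higher. It had 62.9, 56.1, 45.7 and 55.8 in control and 88.8, 74.1, 63.6 and 76.2 in paused libraries, with no overlap, and a log2 change of 0.45 (SE 0.156, limma-trend adjusted p = 0.0469). This call stood at the threshold and was lost in 12 of 17 alternatives, among them the omission of any library but paused replicate 3, with adjusted p up to 0.391. The sum was 671 ± 53.7 in control and 730 ± 39.9 in paused libraries (SD, n = 4), a log2 change of 0.12 that was not called (limma-trend adjusted p = 0.152). Of 7 peaks in the window nearer to other genes, 1 was called: a Dnajb8 peak at chr6:88234101-88234301, with 18.3, 31.1, 18.6 and 19.1 in control and 15.0, 9.46, 6.21 and 10.5 in paused libraries. It was lower by log2 -1.03 (limma-trend adjusted p = 0.0217), and the call was lost without control replicate 2 (adjusted p = 0.105) or paused replicate 3 (adjusted p = 0.064), in DESeq2 (adjusted p = 0.0685) and after the loess correction (adjusted p = 0.0505).

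Gata3, which acts alongside Cdx2 in the trophectoderm (GeneID 14462, chr2:9857078-9887953), had the highest value of the 10 genes at the peak nearest to a start, although its promoter window itself held no peak. The peak, 1092 bp before the start in the RefSeq record, measured 258, 232, 318 and 291 in control and 255, 270, 326 and 342 in paused libraries. The groups overlapped, and the log2 change was 0.12 (interval -0.12 to 0.35, limma-trend adjusted p = 0.537). Of its 15 own peaks 1 was called. At chr2:9856096-9856296, 882 bp beyond the far end of the gene, the values were 89.2, 94.3, 67.7 and 85.2 in control and 117, 123, 113 and 136 in paused libraries. Every paused value was above every control value, and the log2 change was 0.54 (SE 0.135, limma-trend adjusted p = 0.00566). It was not called by DESeq2 (log2 change 0.41, adjusted p = 0.118) or after the loess correction (0.34, adjusted p = 0.0987). The sum was 938 ± 31.3 in control and 1012 ± 81.7 in paused libraries (SD, n = 4), log2 change 0.11 (limma-trend adjusted p = 0.161).

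Tfap2a, an AP-2 factor of trophoblast, surface ectoderm and neural crest (GeneID 21418, chr13:40713802-40738238), had the largest change in summed value of the 10 genes. Its summed value was 779, 770, 765 and 757 in control replicates 1 to 4 and 963, 976, 933 and 985 in paused replicates 1 to 4. The groups were far apart relative to their spread, with means of 768 ± 9.24 and 964 ± 23.1 (SD, n = 4), a rise of 25.6% and a log2 change of 0.33 (SE 0.0552, limma-trend adjusted p = 9.73e-05). The change was smaller under other scalings but was still called, at 0.18 after TMM rescaling (limma-trend adjusted p = 0.0292) and 0.17 after the loess correction (limma-trend adjusted p = 0.0376). It missed the threshold as a mean of log2(value + 1) over peaks, which weights weak and strong peaks alike (0.23, limma-trend adjusted p = 0.0549).

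4 of the 15 own peaks of Tfap2a were called higher and 0 lower, and 12 of the 15 changes were positive. Of the 4, 3 lay inside the gene, in a stretch of 8523 bp between 10619 and 19142 bp downstream of the second start. The middle one, chr13:40717442-40717642, had 61.5, 53.8, 52.5 and 54.4 in control and 117, 109, 94.7 and 97.2 in paused libraries. All 4 paused values were far above the controls: the peak rose by 87.8%, a log2 change of 0.90 (SE 0.142, limma-trend adjusted p = 3.85e-05), and was called in all 17 alternatives. The one nearest to the gene end, chr13:40714553-40714753, had 35.6, 43.0, 18.6 and 23.5 in control and 48.5, 72.5, 51.2 and 53.9 in paused libraries. It was weaker and more variable but did not overlap, with a log2 change of 0.94 (SE 0.210, limma-trend adjusted p = 0.00217), and only DESeq2 did not call it (adjusted p = 0.0657).

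The strongest Tfap2a peak, chr13:40723076-40723276, changed less. It had 100, 103, 110 and 115 in control and 141, 126, 161 and 124 in paused libraries, a log2 change of 0.36 (SE 0.127, limma-trend adjusted p = 0.0499). Although the groups did not overlap, this call lay at the threshold and was lost in 14 of 17 alternatives, the omission of any of the 8 libraries among them (adjusted p 0.0541 to 0.160). Upstream of the gene, chr13:40749378-40749578 had 63.6, 71.7, 71.1 and 67.6 in control and 96.9, 99.4, 85.3 and 125 in paused libraries, with no overlap and a log2 change of 0.55 (SE 0.142, limma-trend adjusted p = 0.00736). Paused replicate 4 was its highest value, and without that library the log2 change was 0.45 and not called (limma-trend adjusted p = 0.0583). The call was also lost in DESeq2 (adjusted p = 0.0845) and after the loess correction (limma-trend adjusted p = 0.101). The start peak, whose sequence is printed above, had 92.0, 86.0, 91.4 and 76.4 in control and 104, 88.3, 99.3 and 96.1 in paused libraries, overlapping, with a log2 change of 0.16 (limma-trend adjusted p = 0.442).

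The 4 called peaks made up 34.0% of the control sum of Tfap2a. The other 11 peaks together measured 518, 499, 513 and 497 in control and 561, 569, 540 and 585 in paused libraries, without overlap, a difference of 11.2% or 0.15 on the log2 scale, which is also the median log2 change of all gene sums (0.15). As these 11 are what remained after the called peaks were removed, that difference is a description and was not tested.

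Tfap2c, the AP-2 factor shared by trophoblast and germ cell precursors (GeneID 21420, chr2:172545678-172558622), had 23 own peaks, the most of the 10 genes, of which 22 were tested and 4 called, all higher. Its strongest peak lay inside the gene, at chr2:172550558-172550758, with 242, 288, 298 and 304 in control and 272, 303, 306 and 327 in paused libraries. These overlapped, and the log2 change of 0.10 was not called (limma-trend adjusted p = 0.595). All 4 called peaks were outside the gene. At chr2:172594422-172594622, 35900 bp from the nearer end, the values were 58.8, 64.5, 71.1 and 70.5 in control and 105, 99.4, 104 and 128 in paused libraries. The groups were well separated, the log2 change was 0.71 (SE 0.139, limma-trend adjusted p = 0.000564), and all 17 alternatives called it.

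On the other side of Tfap2c, chr2:172521057-172521257, 24521 bp from the gene, had 50.1, 64.5, 42.3 and 58.8 in control and 76.1, 106, 71.4 and 92.5 in paused libraries. They did not overlap, and the log2 change was 0.67 (SE 0.160, limma-trend adjusted p = 0.0039), lost only in DESeq2 (adjusted p = 0.060). A stronger peak 28950 bp from the gene, chr2:172516628-172516828, had 249, 234, 247 and 240 in control and 272, 319, 330 and 330 in paused libraries, a log2 change of 0.36 (SE 0.106, limma-trend adjusted p = 0.0173). It lost the call without paused replicate 4 (adjusted p = 0.0707) and under 4 changes of scaling or tool (adjusted p 0.0905 to 0.30). The peak closest to the gene, chr2:172544793-172544993, 785 bp from one end, had 66.4, 52.5, 61.0 and 95.5 in control and 87.7, 117, 79.1 and 129 in paused libraries. Control replicate 4 lay above 2 of the paused libraries, so the groups overlapped, and the log2 change of 0.58 (limma-trend adjusted p = 0.0142) was lost in 6 alternatives, among them the omission of control replicate 2 or paused replicate 2 or 4 (adjusted p 0.0587 to 0.092). At the other end of the gene, 505 bp away, a peak of 45.5 ± 2.71 in control and 42.3 ± 3.61 in paused cells (SD, n = 4) was not called.

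The summed value of Tfap2c was 1535, 1504, 1468 and 1681 in control and 1648, 1877, 1674 and 1974 in paused libraries. Control replicate 4 lay above 2 paused libraries, so the groups overlapped, and the log2 change was 0.21 (SE 0.053, limma-trend adjusted p = 0.00412). In contrast to Tfap2a, the call rested on the scaling: the log2 change was 0.06 after TMM rescaling (limma-trend adjusted p = 0.469), 0.07 in edgeR with TMM (adjusted p = 0.453) and 0.04 after the loess correction (limma-trend adjusted p = 0.652). It was also lost as a mean of log2 values (0.13, adjusted p = 0.440) and with peaks within 10 kb only (0.14, adjusted p = 0.187). The difference between Tfap2a and Tfap2c was not tested. One peak of the window nearer to Fam209, chr2:172496356-172496556, rose from 6.77 to 17.9 in control to 21.9 to 31.6 in paused libraries, a log2 change of 1.20 (SE 0.285, limma-trend adjusted p = 0.00367).

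**Figure D4:**
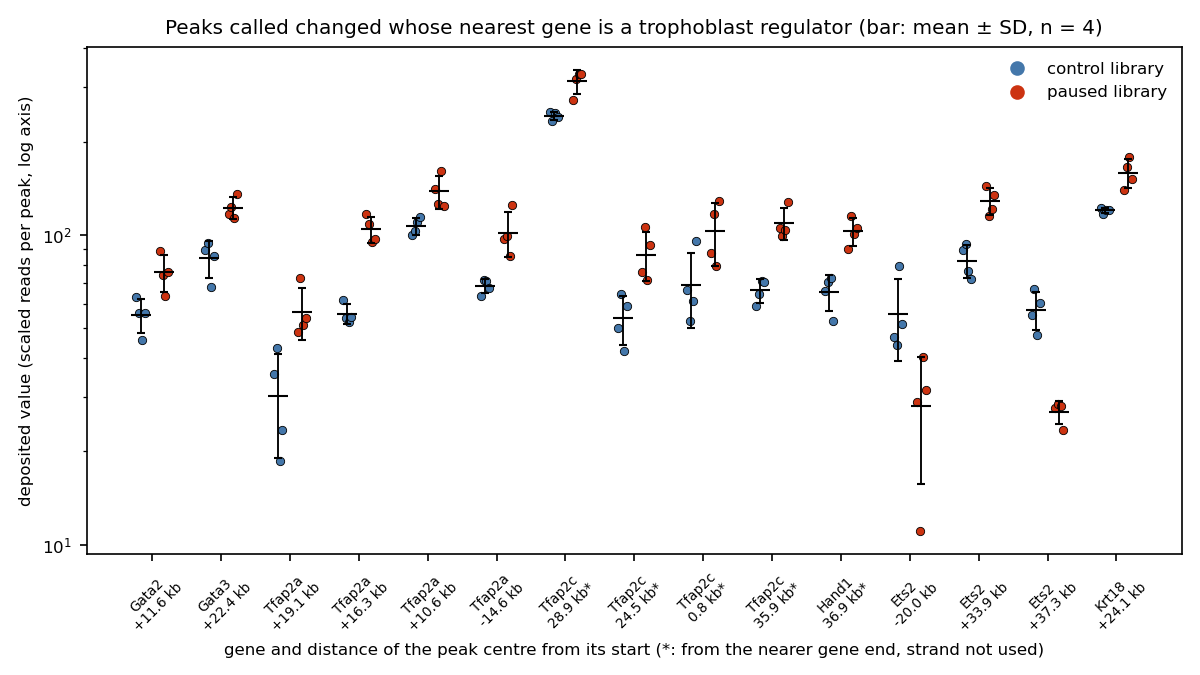
Deposited values (scaled reads per peak, log axis) in each library of the 15 called peaks whose nearest gene is one of the 10, with mean ± SD (n = 4), ordered by gene and position and labelled with the distance of the peak centre from the gene start, or from the nearer gene end where marked. In 13 peaks the paused points are the higher ones, and in 2 Ets2 peaks they are the lower ones.

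Hand1, a bHLH factor of giant cells (GeneID 15110, chr11:57828713-57832147), had 1 called change, far from the gene, and none near it. The called peak, chr11:57868957-57869157, 36910 bp away, had 66.0, 70.5, 72.8 and 52.9 in control and 90.0, 115, 101 and 105 in paused libraries. The groups did not overlap, the log2 change was 0.65 (SE 0.144, limma-trend adjusted p = 0.00198), and all 17 alternatives called it. The strongest Hand1 peak, chr11:57820102-57820302, had 96.5, 121, 98.2 and 98.5 in control and 76.1, 86.8, 96.2 and 83.2 in paused libraries. All paused values were below all control values, with a log2 change of -0.27 that was not called (limma-trend adjusted p = 0.182). It was called lower in edgeR with TMM (log2 change -0.38, adjusted p = 0.0492) and after the loess correction (-0.46, limma-trend adjusted p = 0.0233). The peak at the gene end, 49 bp inside it, had 81.2, 78.8, 81.3 and 89.6 in control and 79.6, 52.0, 71.4 and 83.2 in paused libraries, overlapping. The sum of the 13 peaks was 575 ± 41.8 and 573 ± 11.7 (SD, n = 4), a log2 change of -0.00 with an interval of -0.14 to 0.14. A peak nearer to Galnt10, chr11:57790968-57791168, was higher by 0.56 (limma-trend adjusted p = 0.0297) and was not called in 8 of 16 alternatives, among them the omission of control replicate 2 or 3 or paused replicate 1 or 4 (adjusted p 0.0517 to 0.135).

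Ets2 (GeneID 23872, chr16:95702407-95721049) is an ETS-family factor downstream of FGF signalling in the trophoblast. In the main test it was the one gene of the 10 with own peaks called in both directions. In edgeR with TMM and after the loess correction, Hand1 also had own peaks called in both. Downstream of Ets2, 2 peaks whose starts are 3462 bp apart moved in opposite ways. At chr16:95736162-95736362 the values were 89.2, 93.2, 76.2 and 72.0 in control and 144, 115, 121 and 135 in paused libraries, a rise of 55.8% and a log2 change of 0.64 (SE 0.134, limma-trend adjusted p = 0.00115). Its neighbour, chr16:95739624-95739824, had 55.0, 66.9, 47.4 and 60.2 in control and 27.7, 28.4, 27.9 and 23.4 in paused libraries, a log2 change of -1.06 (SE 0.185, limma-trend adjusted p = 0.000131). Neither pair of groups overlapped. The value of the first peak divided by that of the second, a ratio within a library that does not depend on the scaling between libraries, was 1.62, 1.39, 1.61 and 1.20 in control and 5.21, 4.06, 4.33 and 5.75 in paused libraries. As the 2 peaks were picked from those called in opposite directions, the separation of these ratios follows from the choice and was not tested.

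The other Ets2 peak called lower was upstream, at chr16:95682347-95682547, 19960 bp before the start. It had 46.7, 44.2, 79.6 and 51.4 in control and 28.8, 11.0, 40.3 and 31.6 in paused libraries, no overlap, and a log2 change of -1.06 (SE 0.248, limma-trend adjusted p = 0.00326). Control replicate 3 and paused replicate 3 were the highest of their groups. The authors' deposited table gives this peak an FDR of 0.0645. None of the 3 Ets2 calls was lost in an alternative that tested the peak, but both lower peaks drop out when tests are limited to peaks averaging 50 reads or more. The start peak, 443 bp before the start, had 158, 189, 169 and 173 in control and 200, 186, 208 and 196 in paused libraries, overlapping at 1 value of each group, with a log2 change of 0.20 (limma-trend adjusted p = 0.248). Summed over 17 peaks, Ets2 was at 985 ± 21.8 and 1027 ± 35.3 (SD, n = 4), log2 change 0.06 (limma-trend adjusted p = 0.387).

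Krt8 and Krt18, whose keratins pair in the same filaments, lie close together (GeneIDs 16691 and 16668, chr15:101996711-102004342 and chr15:102028216-102032026), so that most peaks in one window are also in the other. Krt18 had the only start peak among the 10 whose groups did not overlap. Of all tested peaks, 13.0% had all paused values above all control values and 4.36% had them below. The Krt18 start peak had 121, 111, 117 and 120 in control and 129, 164, 157 and 144 in paused libraries, a mean of 117 ± 4.67 against 149 ± 15.3 (SD, n = 4). The log2 change was 0.33 (interval 0.08 to 0.58), and with a limma-trend adjusted p of 0.063 it was not called. Without paused replicate 1 it was called (0.40, limma-trend adjusted p = 0.039), as it was when only peaks averaging 50 reads or more were tested (adjusted p = 0.0402). In DESeq2 or after rescaling it was not.

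The called Krt18 peak, chr15:102052171-102052371, 24055 bp from the start, had 122, 117, 120 and 120 in control and 140, 166, 178 and 151 in paused libraries. The control values were close together and the groups did not overlap, with a log2 change of 0.39 (SE 0.121, limma-trend adjusted p = 0.0239). The call was lost without paused replicate 2 (adjusted p = 0.0641) or 3 (adjusted p = 0.077), in DESeq2, and under TMM or loess scaling (adjusted p 0.103 to 0.324). The sum for Krt18 was 534, 478, 611 and 519 in control and 508, 582, 680 and 586 in paused libraries, overlapping, log2 change 0.13 (limma-trend adjusted p = 0.207).

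Krt8 had 3 own peaks and none was called. Its start peak had 45.3, 46.6, 45.7 and 57.3 in control and 54.2, 34.7, 59.0 and 51.5 in paused libraries, with a log2 change of 0.01 (interval -0.35 to 0.37). Its strongest peak, chr15:102013715-102013915, between the genes, had 82.6, 56.1, 107 and 74.9 in control and 62.3, 71.0, 94.7 and 91.4 in paused libraries, which overlapped widely. A weak peak inside the gene, chr15:102000120-102000320, had the smallest p, with 23.0 ± 6.29 in control and 31.5 ± 5.91 in paused cells (SD, n = 4), and was not called (limma-trend adjusted p = 0.192). The sum was 152 ± 21.1 and 161 ± 18.9 (SD, n = 4), log2 change 0.09 with an interval of -0.15 to 0.33.

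Other genes of the trophoblast lineage gave a similar share of calls. In a list of 25 such genes, 225 peaks were tested, 21 were higher and 7 lower (12.4%), with a median log2 change of 0.06 beside 0.10 for all peaks. By gene sum, 7 of the 25 were higher and 0 lower, beside the 29.6% and 1.40% of all genes. Bmp4, a growth factor that pushes embryonic stem cells toward trophoblast in culture, held 2 of the 3 smallest p-values. Its start peak had 125, 150, 124 and 154 in control and 198, 233, 194 and 228 in paused libraries, no overlap, log2 change 0.63 (limma-trend adjusted p = 0.000387). A second Bmp4 peak, chr14:46410777-46410977, had 30.1, 40.6, 25.4 and 39.7 in control and 77.3, 91.5, 60.5 and 58.6 in paused libraries, also without overlap (log2 change 1.06, limma-trend adjusted p = 0.000114). The other was a peak inside Cdh3, the P-cadherin gene, with 106, 115, 113 and 120 in control and 155, 205, 163 and 194 in paused libraries. Krt19, another simple-epithelium keratin, was the only other gene of the list with a called start peak (log2 change 0.50, limma-trend adjusted p = 0.0232). The start of Krt19 was not given, so this peak, nearest to either gene end, may not lie there. Its groups overlapped, with 57.3 to 79.2 in control and 71.0 to 111 in paused libraries. The calls of this list were not looked at under another scaling or tool, or with a library left out.

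Genes that hold back trophoblast fate in embryonic stem cells (Pou5f1, Nanog, Sox2, Sall4, Setdb1, Kdm1a, Chaf1a, Chaf1b, Dnmt1, Mbd3, Tet1, Tet2, Rnf2, Eed and Uhrf1) differed by peak and by gene sum in how their calls compare with the background. Of 163 tested peaks of these 15 genes, 15 were higher and 1 lower (9.82%, beside 13.9% of all peaks), median log2 change 0.08. By gene sum 8 of 15 were higher and 0 lower, beside 29.6% and 1.40% of all genes. Such calls rested on the scaling: over all genes 5366 sums were called higher, against 849 after TMM rescaling. Neither the sums nor the peaks of this list were looked at under another scaling or tool, or with a library left out. Pou5f1, Nanog and Sox2 were also among the stem cell markers above. Setdb1, a histone H3 lysine methyltransferase, had a start peak with 68.8, 59.7, 64.3 and 52.9 in control and 98.0, 71.0, 76.0 and 91.4 in paused libraries. The groups did not overlap (log2 change 0.44, limma-trend adjusted p = 0.0432). This call was near the threshold, and the authors' deposited table gives the peak an FDR of 0.0682. The start peak of Uhrf1, which recruits the maintenance DNA methyltransferase, had 360, 331, 367 and 381 in control and 449, 437, 517 and 424 in paused libraries (log2 change 0.34, limma-trend adjusted p = 0.0189). The peak nearest to the start of Pou5f1, the factor whose loss turns embryonic stem cells to trophoblast, lay 1989 bp from that start. This is just inside the 2 kb limit. The peak had 307, 328, 327 and 295 in control and 341, 379, 386 and 391 in paused libraries. All paused values were higher, but the change of 0.25 was not called (limma-trend adjusted p = 0.0898). The median log2 change of all tested start peaks was 0.18. The 3 smallest p-values of this list were at 2 peaks of Tet2 (log2 changes 1.18 and 0.84, limma-trend adjusted p = 0.000388 and 0.00402) and 1 peak of Eed (0.67, adjusted p = 0.00209), all called higher.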

How the data were processed

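ATAC-seq libraries of 4 control and 4 paused samples were analysed from 1 deposited table, with groups and replicate numbers taken from the sample labels. The peaks have one width, 201 bp. The submitters' processing notes name Trim Galore, FastQC, Bowtie2 2.4.1, MACS3 3.0.3, DiffBind 3.16.0 and the build mm10, without the step each was used for; read filters and the handling of the Tn5 offset are not given in the sources used here. Each deposited value is a signal: the read number of a peak, which the authors scaled by 1 factor per library. This was read from the values, 100% of which were whole multiples (to the 2 decimals given) of 1 step per library; how the factors were made is not given in the sources used here. The log2 folds and the p-values with their FDR that the authors deposited are their own comparison, per the file headers, and were used only where their table is named.

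The main test was limma-trend (limma 3.58.1, R 4.3.3) of control against paused, fitted with no covariate to log2(value + 1). Peaks averaging 10 or more entered, and p-values were Benjamini-Hochberg adjusted over all of them with a threshold of 0.05. Fold changes on this scale understate the change of weak peaks. Gene sums were fitted the same way over all protein-coding genes, each peak counting for its nearest gene if inside it or within 50 kb. Gene spans, promoter windows and starts came from RefSeq tables of GRCm38.p6, whose coordinates mm10 shares. Exons were not analysed here. Alternatives on the recovered whole reads were edgeR 4.0.16 (quasi-likelihood; with TMM or the deposited factors) and DESeq2 1.42.0, whose missing adjusted p-values were kept missing. With the deposited factors edgeR called 16429 peaks higher and 4625 lower. The others were filters, the pseudocount (0.1), TMM rescaling, a loess correction on peak strength (span 0.3), the window, a replicate block and each library left out. The loess correction of gene sums was added after seeing the data.

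On simulated data with 200 of 124131 peaks changed, limma-trend recovered 49 of 100 peaks changed by log2 1 and 90 of 100 changed by 1.5, with 3 false calls. With 200 of 18037 gene sums changed it recovered 93 and 99 of 100, with 9 false calls. Both simulations used the same assumed dispersion throughout, changed only peaks or genes with more reads, and held no shift between the groups. Their rates may therefore not carry over to these data. No pair of libraries within a group agreed within sampling noise (chi-square per degree of freedom at least 1.09), so none was treated as a repeat deposit of another, which does not show that they came from separate cultures.

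For each of the 10 genes the text names the peak nearest to its start within 2 kb, its strongest own peak, the one with the smallest adjusted p and every called peak, for peaks of other genes in the windows those called, and for the lists of trophoblast and barrier genes the 3 peaks with the smallest adjusted p. Called start peaks of these lists and that of Pou5f1 were named after their values were seen. The genes, lists and motifs were chosen with earlier results of these data known.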

Additional observations from a re-analysis of the deposited data

Results flagged for a closer look

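In 4 of 100 groups of 4 values checked, 1 library lay far from the other 3 by Dixon's ratio, where chance gives about 1 in 20. At the strongest Hand1 peak, chr11:57820102-57820302, control replicate 2 was at 121, the others at 96.5, 98.2 and 98.5. At the downstream Ets2 peak called lower, chr16:95739624-95739824, paused replicate 4 was at 23.4, the others at 27.7, 27.9 and 28.4. At the Krt8 start peak, chr15:102003631-102003831, control replicate 4 was at 57.3, the others at 45.3, 45.7 and 46.6. At the Dnajb8 peak in the Gata2 window, chr6:88234101-88234301, control replicate 2 was at 31.1, the others at 18.3, 18.6 and 19.1, and without that library the peak was not called.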

How the results depend on the processing

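The direction of 15 called own peaks held in every alternative run, while counts moved with scaling, tool and filter, and the cause was not tested. Peaks higher and lower were 3902 and 1892 in DESeq2, 9084 and 7058 in edgeR with TMM, 7656 higher after TMM rescaling, 6574 higher after loess, and 791 lower with a mean of at least 50 reads. For all peaks in the windows, higher and lower were 5 and 4 in DESeq2, 11 and 10 in edgeR with TMM, 10 and 7 after TMM rescaling, and 8 and 8 after loess. They were 15 and 0 with at least 50 reads (fewer peaks tested), 6 and 1 within 10 kb and 22 and 8 within 100 kb. For own peaks they were 4 and 2 in DESeq2, 9 and 6 in edgeR with TMM, 8 and 3 after TMM rescaling, 6 and 4 after loess, and 13 and 0 with at least 50 reads. Gene sums gave 891 and 880 in edgeR with TMM, 849 and 780 after TMM rescaling, 839 and 820 after loess, 1460 higher as mean log2 values, and 130 lower with a mean sum of at least 100.

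Uncalled changes near 0 turned sign. In DESeq2 the log2 change was -0.070 at the Gata2 start peak, -0.048 at the Krt8 start peak and -0.11 at the strongest Krt8 peak. In edgeR with TMM these were -0.071, -0.031 and -0.11, and the sums were -0.14 for Cdx2, -0.11 for Elf5, -0.030 for Gata2, -0.041 for Gata3, -0.090 for Ets2, -0.060 for Krt8 and -0.016 for Krt18. After TMM rescaling the same peaks were at -0.060, -0.087 and -0.090, the strongest Tfap2c peak at -0.0068, and the sums, in that order, at -0.14, -0.12, -0.022, -0.039, -0.086, -0.056 and -0.011. After loess the sums were -0.15, -0.13, -0.033, -0.053, -0.10, -0.059 and -0.024. The start peaks were then -0.071 (Cdx2), -0.16 (Gata2), -0.087 (Gata3), -0.027 (Tfap2a), -0.0083 (Ets2) and -0.12 (Krt8), and the strongest peaks -0.071 (Cdx2), -0.041 (Gata2), -0.11 (Tfap2c) and -0.17 (Krt8). As mean log2 values the sums were -0.027 for Cdx2, -0.025 for Ets2 and -0.0098 for Krt18, and within 10 kb -0.028 for Elf5.

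With each library left out, peaks ranged from 8980 to 12689 higher and 2314 to 3871 lower, window peaks from 10 to 16 higher and 4 to 6 lower, own peaks from 8 to 12 higher and 2 to 3 lower, and gene sums from 3582 to 5522 higher and 168 to 249 lower. Without paused replicate 4 the window and own peaks called higher were fewest. The start peaks ranged from -0.32 to 0.13 for Elf5, -0.013 to 0.085 for Gata2 and -0.076 to 0.17 for Krt8, the strongest Krt8 peak from -0.15 to 0.16, and the sums from -0.040 to 0.070 for Cdx2, -0.036 to 0.12 for Elf5, -0.044 to 0.037 for Hand1 and -0.012 to 0.15 for Krt8.

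Whether the replicate numbers pair the samples was left unsettled. Deviations of same-numbered libraries correlated weakly, at 0.079, 0.036, 0.133 and 0.039, beside -0.105 to 0.070 for libraries of different numbers. Control replicate 2 and paused replicate 2 correlated best with a library of another number, and the other libraries with their own. The replicate block gave 17371 peaks higher and 4623 lower, 19 and 5 in the windows, 14 and 2 for own peaks, and 6598 and 320 gene sums. It called the Krt18 start peak (limma-trend adjusted p = 0.0465) and changed no other call among the sums of the 10 genes and the peaks named in their windows. Neither the block nor the other alternatives were looked at for the peaks and sums of the other lists.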

Other observations

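At the keratin genes the libraries with replicate number 3 stood out. Of the 10 tested own peaks of Krt8 and Krt18, control replicate 3 and paused replicate 3 were both the highest of their groups in 5, a pattern picked after the values were seen. Over all 127402 tested peaks this was so for 10.1%, and over the 110 own peaks of the 10 genes for 11. For the numbers 1, 2 and 4 the share over all peaks was 4.51%, 6.24% and 7.55%, and over the 10 keratin peaks the counts were 0, 1 and 0. Control replicate 3 was also the shallowest library, and the part of depth in this was not tested.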
